A study of Drosophila ananassae with 54 samples.

Results

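The subject is the 100 genes of Drosophila ananassae with the largest minimum rise of the transcript level in the cold over 3 lines and 3 tissues, out of 14365 genes counted in 54 RNA-seq libraries. The genes were chosen by their measured cold response. For each line and tissue a log2 ratio was formed from the mean CPM (counts scaled to a common library size) of the cold and the control libraries, with 0.5 CPM added to each mean. Genes needed a mean of at least 5 CPM in the 9 cold and in the 9 control libraries of each tissue, which left 5818. All 9 ratios were above 0 in 1792 of these (30.8%), and the 100 with the highest minimum of the 9 ratios were taken. The cold response is therefore described without a test, and the tests concern differences between lines and between organs.

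Adult males were compared after cold acclimation, in which flies spent 4 days at 10 °C and then recovered for 90 min, and after 4 days at 22 °C as the control. Treatment began on the day after the adults had emerged. The labels give a recovery for cold libraries only, so effects of 10 °C and of the recovery cannot be told apart. The word cold stands for both together. The lines were KATH, from Kathmandu and cold-tolerant (3 isofemale lines pooled), FastBKK, from Bangkok and cold-tolerant (4 pooled), and SlowBKK, from Bangkok and cold-sensitive (4 pooled). Hindgut and Malpighian tubule libraries came from 60 pooled individuals each and body libraries from 10, with 3 libraries in each of 18 groups. The labels do not say whether the pools of a group were raised apart, so p-values measure the spread between these pools only. The body was extracted with another kit and from fewer flies than the organs, so it was not tested against them.

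The Malpighian tubules of insects secrete a primary urine, and the hindgut takes ions and water back from it before excretion. Chilling disturbs this balance in many insects and lets potassium build up in the hemolymph. Cold acclimation is known to shift the transport capacity of both organs. The deposited identifiers matched 0 entries of the gene table used here, so the genes are called by their annotation symbols and no role is given to them, and organ identity could not be checked with named marker genes.

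Libraries held 30714050 to 48773585 counts. As a measure of carry-over, genes abundant in one tissue and nearly absent from another were followed. The 795 such genes of the body, against both organs, reached a median of 5.31% of their body level in FastBKK control hindgut replicate 3 and at most 0.675% in any other organ library. The 283 such genes of the hindgut, against the tubule, reached at most 1.40% of their hindgut level in a tubule library. In FastBKK control hindgut replicate 3 the 100 genes lay at 0.558 to 1.47 times the mean of the other 2 libraries (median 0.953), and all 100 remained without that library. Without it the hindgut calls between lines, given further on, were 33 in place of 33 for KATH and SlowBKK, 18 in place of 20 for KATH and FastBKK, and 14 in place of 16 for FastBKK and SlowBKK.

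In the organs the median of the 100 genes was raised 2.62- to 3.47-fold by cold, depending on line, and in the body 1.998- to 2.31-fold. The median log2 ratio of the hindgut was 1.49 in KATH, 1.52 in FastBKK and 1.80 in SlowBKK. For the tubule it was 1.55 in KATH, 1.39 in FastBKK and 1.76 in SlowBKK, and for the body 1.00 in KATH, 1.12 in FastBKK and 1.21 in SlowBKK. The corresponding medians of the 5818 genes were 0.28 to 0.31 (hindgut), 0.15 to 0.27 (tubule) and 0.07 to 0.15 (body). Scaling by trimmed means (TMM) instead of library size lowers each hindgut ratio by 0.28 to 0.34, each tubule ratio by 0.20 to 0.29 and the Bangkok body ratios by 0.07, and raises the KATH body ratio by 0.04. With that scaling the lowest single ratio among the 100 genes was 0.47. In such bulk samples more RNA per cell and more cells that express a gene cannot be told apart.

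**Figure D1:**
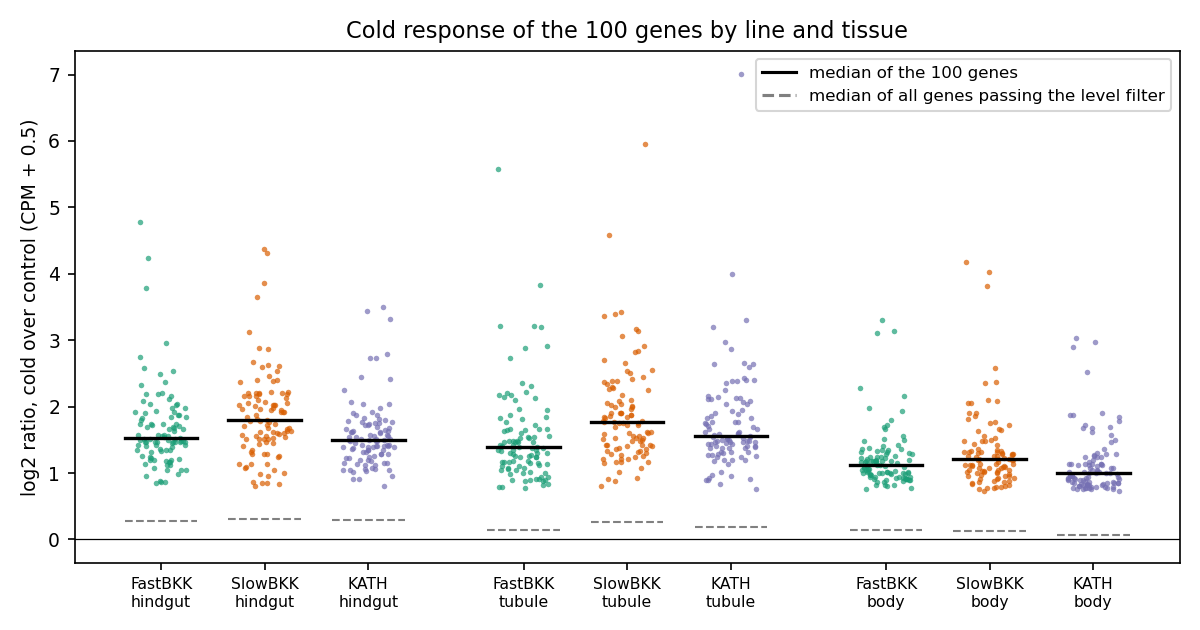
Log2 ratio of cold over control mean CPM (0.5 added) for each of the 100 genes, 1 point per gene, by line and tissue. Solid bars are medians of the 100 genes (1.00 to 1.80) and dashed bars medians of the 5818 genes passing the level filter (0.07 to 0.31).

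The choice of genes favours complete separation of the treatments, and it was nearly complete. All 3 cold libraries lay above all 3 control libraries for 100 of the 100 genes in the hindgut of KATH (53.9% of the 5818 genes), FastBKK (51.6%) and SlowBKK (56.5%). The same held for 100 genes in tubules of KATH (46.7%) and SlowBKK (54.5%), and for 100 in bodies of KATH (37.8%), FastBKK (47.5%) and SlowBKK (46.3%). For FastBKK tubules the count was 99 (37.5%), with GF28074 the exception. Across the lines, 9 cold libraries lay above 9 control libraries for 97 genes in hindguts (34.2%), 96 in tubules (24.7%) and 98 in bodies (20.1%). For 39 genes each of the 27 cold libraries, whatever the tissue, lay above all 27 control libraries (2.23%).

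Together the 100 genes took up 1.45 to 1.65% of all counts in cold hindgut libraries, against 0.501 to 0.572% in control hindguts. The shares were 1.68 to 2.08% in cold tubules against 0.472 to 0.561% in control tubules, and 0.954 to 1.15% in cold bodies against 0.382 to 0.484% in control bodies. As TPM, which is also scaled by gene length, their median level was 39.5 in cold and 9.85 in control hindguts. It was 58.7 in cold and 16.2 in control tubules, and 31.9 in cold and 11.7 in control bodies. Averaged over all libraries the median level of the 100 genes was 32.3 TPM, beside 31.7 TPM for the 5818 genes. At least 100 TPM was reached by 12 of the 100 and by 1122 of the 5818. Median gene length was 2190 bases, beside 1954.5.

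The genes were spread over 14 scaffolds. Scaffold 13340 held 23 of them, scaffolds 13266 and 12916 held 20 each and scaffold 13337 held 15, where those scaffolds hold 19.8%, 20.2%, 13.0% and 19.1% of the 5818 genes. On shared scaffolds, 2 pairs carry consecutive annotation numbers, GF12140 with GF12141 and GF17097 with GF17098. Counts of GF17098 were 0.736 to 1.31 times those of GF17097 over the 54 libraries, and counts of GF12141 were 0.298 to 1.38 times those of GF12140. Whether neighbours or copies share reads was not tested.

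The weakest of the 9 ratios was a body ratio for 78 of the 100 genes, and that of KATH body for 55. This place depended on the scaling, since with TMM the weakest ratio was a body ratio for 45 genes and that of KATH body for 21. The minimum ratio ran from 0.73 to 2.22 (median 0.89), and 33 genes had all 9 ratios above 1 (22 with TMM). At the lower edge the last genes inside were GF16145 and GF19053, with minimum ratios of 0.736 and 0.734, and the first outside were GF21978 and GF11862, with 0.734 and 0.732. The 10 genes with the highest minimum ratio were GF27320 (2.22), GF26985 (1.87), GF26268 (1.56), GF13422 (1.50), GF17054 (1.47), GF18095 (1.41), GF14974 (1.38), GF12779 (1.32), GF14470 (1.30) and GF12140 (1.29).

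GF27320 (FBgn0274543, scaffold 3211, 1100 bases) had the highest minimum. In hindguts it had 159.6, 198 and 106 CPM in cold KATH, against 15.3, 14.1 and 10.4 CPM in control KATH. FastBKK had 53.7, 112 and 53.7 CPM in the cold and 1.53, 2.08 and 2.94 CPM in the control, a 27.4-fold difference of means with 0.5 added. SlowBKK had 160.2, 240.0 and 149 CPM in the cold and 11.7, 7.47 and 6.05 CPM in the control. The cold libraries of every line lay far above its controls, and the control libraries of FastBKK lay below those of both other lines.

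In the other tissues GF27320 was separated by smaller steps in tubules than in bodies. FastBKK tubules, where its ratio was lowest, had 41.9, 70.9 and 29.0 CPM in the cold and 14.3, 7.97 and 6.96 CPM in the control. SlowBKK bodies had 287, 156 and 325 CPM in the cold and 15.3, 14.9 and 10.8 CPM in the control. Cold libraries of 1 group differed widely among themselves for this gene, yet none fell into the control range of its line.

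GF26985 (FBgn0274208, scaffold 13117, 3130 bases) and GF28074 (FBgn0275297, scaffold 13266, 2550 bases) behaved much like it, and the 3 genes had the highest mean ratios of all in hindguts and in bodies. Mean log2 ratios over the lines were 4.21 for GF27320, 4.00 for GF26985 and 3.65 for GF28074 in hindguts, and 3.51, 3.38 and 3.27 in bodies. In tubules they were lower, at 2.68, 2.50 and 2.01. The same library was the highest for all 3 genes in 15 of the 18 groups and the lowest in 14, a likeness looked for after their values had been seen. Their counts did not keep 1 ratio: over the 54 libraries those of GF26985 were 0.849 to 3.20 times, and those of GF28074 0.726 to 4.78 times, those of GF27320.

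GF28074 was the 1 gene whose treatments overlapped within a line. FastBKK tubules had 89.9, 75.3 and 30.7 CPM in the cold and 68.5, 25.1 and 18.9 CPM in the control, a log2 ratio of 0.79. SlowBKK tubules had 245, 135 and 289.9 CPM in the cold and 38.9, 23.0 and 12.9 CPM in the control, a log2 ratio of 3.14. A single FastBKK control library lay inside the range of the cold libraries.

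**Figure D2:**
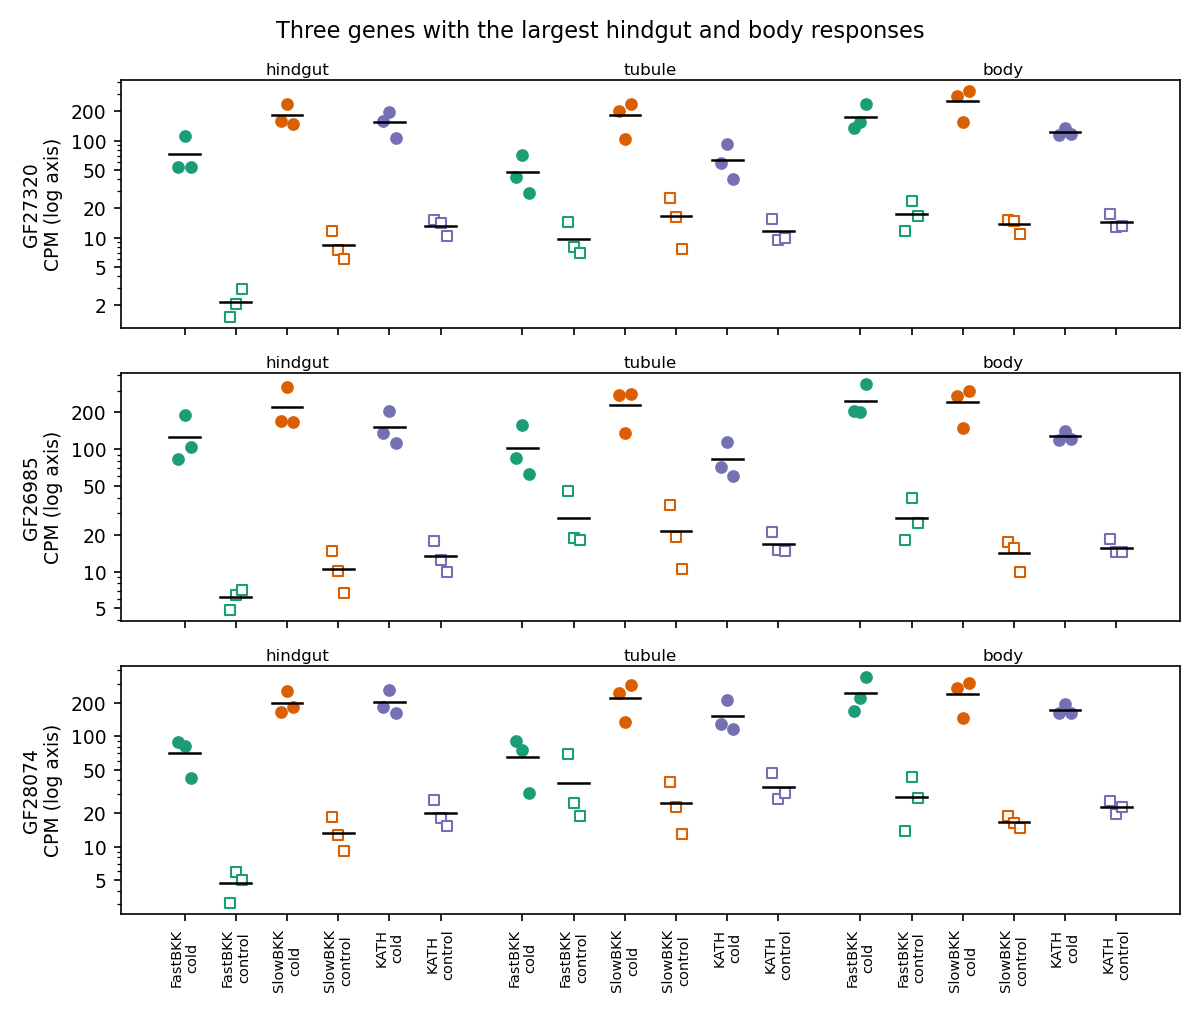
CPM (log axis) of GF27320, GF26985 and GF28074 in every library, by line, treatment and tissue; filled circles are cold libraries, open squares control libraries, bars group means. The FastBKK control hindguts are the lowest libraries for GF27320 (1.53 to 2.94 CPM) and GF28074, and in FastBKK tubules the treatments of GF28074 overlap.

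By the mean over lines, the ratio was highest in hindguts for 52 genes, in tubules for 47 and in bodies for GF24346. With TMM the counts were 48, 47 and 5, the body leading for GF17710, GF17811, GF18695, GF20723 and GF24346. Among the 1792 genes with positive ratios throughout, the shares by library size were 58.4%, 36.3% and 5.30%. Hindgut and tubule means lay within 0.5 of each other for 72 genes. The tubule exceeded the hindgut by at least 1 for 6 genes (GF17054, GF14618, GF14843, GF18095, GF10695 and GF14111), and the hindgut exceeded the tubule by at least 1 for 5 (GF28074, GF27320, GF26985, GF13028 and GF17804).

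GF17054 (FBgn0094073, scaffold 13340, 1413 bases) stood apart in tubules. It had 609, 562 and 338 CPM in cold KATH tubules, against 3.56, 2.83 and 3.85 CPM in control KATH tubules, a 129-fold difference of means with 0.5 added. FastBKK tubules had 623, 216 and 312 CPM in the cold and 5.69, 11.4 and 5.42 CPM in the control. SlowBKK tubules had 468, 228 and 304 CPM in the cold and 4.75, 4.12 and 5.73 CPM in the control. Every cold tubule library was above every control tubule library by a wide margin.

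The same gene moved less elsewhere. KATH hindguts had 81.1, 102 and 55.6 CPM of GF17054 in the cold and 15.6, 9.20 and 8.50 CPM in the control. KATH bodies had 109, 106 and 95.7 CPM in the cold and 37.6, 37.7 and 36.3 CPM in the control. Its mean log2 ratios were 6.18 in tubules, 2.63 in hindguts and 1.56 in bodies. In KATH the tubule thus held its lowest control values of the 3 tissues and its highest cold values.

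GF14618 (FBgn0091645, scaffold 12916, 665 bases) had a mean log2 ratio of 3.73 in tubules, 1.54 in hindguts and 2.05 in bodies. Its KATH tubules had 567, 686 and 282 CPM in the cold and 23.3, 47.3 and 23.9 CPM in the control. GF18095 (FBgn0095113, scaffold 13340, 871 bases) followed a like pattern, with 2.93 in tubules, 1.51 in hindguts and 1.82 in bodies. Its 9 tubule libraries ran from 603 to 1212 CPM (median 831) in the cold and from 74.3 to 177 CPM (median 109.9) in the control. In each tissue the 9 cold libraries of both genes lay above the 9 controls.

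GF19418 (FBgn0096427, scaffold 13335, 1777 bases) responded unevenly between lines. KATH tubules had 38.4, 47.1 and 40.4 CPM in the cold and 10.1, 8.58 and 8.27 CPM in the control, a log2 ratio of 2.16. SlowBKK tubules had 459.6, 321 and 306 CPM in the cold and 17.4, 13.6 and 12.6 CPM in the control, a log2 ratio of 4.59. The control libraries of these lines lay near each other and the cold libraries far apart. The 9 ratios of GF19418 spanned 3.34, and among the 100 genes only those of GF17054 spanned more (5.54).

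**Figure D3:**
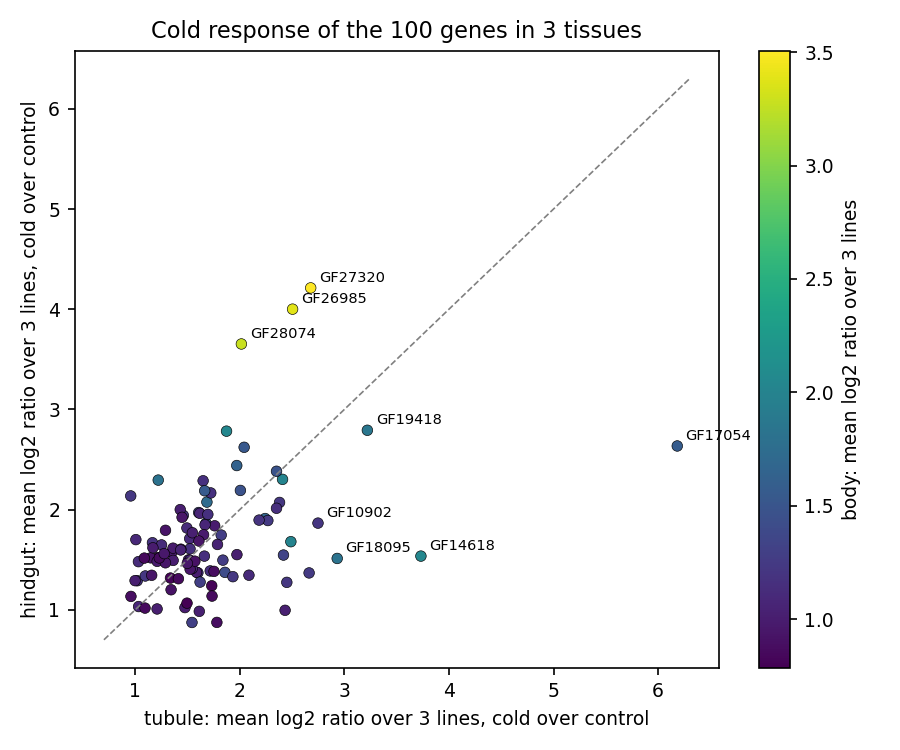
Mean log2 ratio over 3 lines in hindguts (y axis) against that in tubules (x axis), 1 point per gene, coloured by the mean ratio in bodies; the dashed line marks equal ratios. GF17054 (6.18 in tubules) lies far right, and GF27320, GF26985 and GF28074 lie above the line with the highest body ratios.

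At the other extreme some genes moved by nearly the same step everywhere. The span of the 9 ratios was 0.33 to 5.54 over the 100 genes (median 1.17), and it was smallest for GF20723 (0.33), GF24346 (0.33) and GF18695 (0.49). With TMM the smallest spans were those of GF20723 (0.32), GF11945 (0.41) and GF17067 (0.43), while GF24346 and GF18695 both spanned 0.54. GF20723 (FBgn0097729, scaffold 13088, 2726 bases) had 62.6, 62.4 and 58.7 CPM in cold KATH hindguts, against 28.8, 26.2 and 27.2 CPM in control KATH hindguts. KATH bodies had 42.4, 43.2 and 45.7 CPM in the cold and 21.9, 20.9 and 22.8 CPM in the control. Its 9 ratios lay between 0.81 and 1.15, with little spread within any group. GF24346 (FBgn0101340, scaffold 13337, 3740 bases) was the gene of lowest mean level, at 3.40 TPM, with ratios of 0.88 to 1.22.

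By mean TPM over all libraries the leading genes were GF22077 (1346), GF12605 (1207), GF13422 (698), GF10695 (567) and GF18095 (420.2). GF12605 (FBgn0089641, scaffold 13266, 1620 bases) ran from 3453 to 4178 CPM (median 3759.8) in cold hindguts and from 1138 to 1353 CPM (median 1301) in control hindguts. In tubules it ran from 1155 to 1403 CPM (median 1252) in the cold and from 178 to 283 CPM (median 239) in the control. Its cold tubules thus lay at about the level of its control hindguts.

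GF22077 (FBgn0099076, scaffold 12929, 1359 bases) ran from 2232 to 3183 CPM (median 2511) in cold tubules and from 531 to 1064 CPM (median 829) in control tubules. GF13422 (FBgn0090454, scaffold 13266, 1497 bases) ran from 1598 to 2269 CPM (median 2007) in cold bodies and from 566 to 838 CPM (median 608) in control bodies, the tissue where its TPM was highest. GF10695 (FBgn0087736, scaffold 13337, 1405 bases) spread widely in cold tubules. Cold KATH tubules had 2826, 2974 and 1814 CPM and cold FastBKK tubules had 1544, 2886 and 2079.5 CPM of that gene, against 1257, 749 and 1273 CPM in cold SlowBKK tubules. Its 9 control tubules ran from 226 to 338 CPM (median 287), and each cold library of the tolerant lines lay above the cold SlowBKK libraries.

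GF26268 (FBgn0273491, scaffold 13266, 718 bases) ran from 29.4 to 54.4 CPM (median 43.1) in cold and from 7.47 to 9.84 CPM (median 9.01) in control hindguts. GF14974 (FBgn0091999, scaffold 12916, 2279 bases) ran from 55.0 to 115 CPM (median 84.8) in cold and from 9.78 to 15.2 CPM (median 11.4) in control hindguts. GF12779 (FBgn0089813, scaffold 13266, 2754 bases) ran from 244 to 493 CPM (median 373) in cold and from 58.7 to 81.7 CPM (median 67.3) in control hindguts. For each of these 3 genes the lowest cold hindgut was far above the highest control. GF14470 (FBgn0091497, scaffold 12916, 1807 bases) ran from 92.0 to 143 CPM (median 126) in cold and from 14.5 to 23.8 CPM (median 20.1) in control hindguts.

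Some members tracked each other more closely than those at the top. The measure was the SD over the 54 libraries of the log2 ratio of the CPM of a pair, with 0.5 CPM added to each. Its median was 0.606 over all 4950 pairs. The closest pair was GF17067 with GF19192 (SD 0.120), where the count of GF17067 was 0.747 to 1.19 times that of GF19192. GF10393 followed GF25051 (SD 0.121), GF24741 (SD 0.132) and GF11675 (SD 0.134) nearly as closely. The libraries include both treatments, and the cold response by which the genes were chosen enters this measure, so it only describes the 54 libraries.

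Among the lines, the sensitive SlowBKK most often had the highest ratio. It led for 70 genes in hindguts, 60 in tubules and 59 in bodies. Among the 1792 genes with positive ratios throughout it led in 55.9%, 55.4% and 46.6%. SlowBKK led in all 3 tissues for 40 of the 100 genes. With TMM it led for 63, 50 and 57 genes, and in all 3 tissues for 32. No share of the 1792 genes stands beside the counts for all 3 tissues, so they are not read further. These are ratios the choice of genes used, so the order of the lines was not tested.

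In levels averaged over both temperatures KATH was lower than SlowBKK more often than higher. The choice of genes did not use the difference between lines in this level, but it used values that enter it, in the ratios and in the minimum of 5 CPM over the lines. Each tissue was fitted by edgeR's quasi-likelihood test over all its genes, and a difference was called at a Benjamini-Hochberg adjusted p under 0.05. In hindguts KATH was lower than SlowBKK for 28 of the 100 genes (9.61% of all tested genes, 7.67% of the 5818) and higher for 5 (9.47% of all tested). In tubules KATH was lower for 24 (11.6% of all tested, 12.1% of the 5818) and higher for 8 (12.0%). In bodies KATH was lower for 48 (21.5% of all tested, 21.2% of the 5818) and higher for 2 (17.7%). Any difference between lines in the cold response enters this average. A gene low in 1 line could pass the minimum through the other lines, and 12 of the 100 genes had a mean under 5 CPM in at least 1 of the 18 groups. Among the genes called lower in KATH than in SlowBKK such a KATH group was found for 1 in hindguts, 2 in tubules and 3 in bodies. Of the 8 called higher in tubules 1 had such a SlowBKK group.

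Between the tolerant lines 37 genes were called in bodies and 20 in each organ, and the share of all tested genes was highest in bodies too. KATH was lower than FastBKK for 35 genes there (20.1%) and higher for 2 (17.1%). In hindguts KATH was lower than FastBKK for 14 (7.93%) and higher for 6 (8.78%), and in tubules lower for 11 (12.2%) and higher for 9 (11.0%). The organ shares were near those of all genes for the higher calls and for the lower calls of the tubule. In hindguts the lower line had a group under 5 CPM for 2 of the 6 genes and 1 of the 14. In tubules this held for 1 of the 9 and 2 of the 11, and in bodies for 3 of the 35. Such genes passed the minimum through the other lines, and they are part of the counts.

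FastBKK was lower than SlowBKK for 16 genes in hindguts (7.6%) and higher for 0 (6.95%) by edgeR. At an unadjusted p under 0.05 edgeR gave 3 genes higher in FastBKK, and DESeq2 called 2 higher after adjustment. In tubules FastBKK was lower for 18 (7.96%) and higher for 3 (10.1%), and in bodies lower for 13 (13.3%) and higher for 3 (12.6%). A FastBKK group was under 5 CPM for 2 of the 16 hindgut genes and 1 of the 18 tubule genes. Those genes passed the minimum through the other lines. The hindgut count fell to 9 without FastBKK cold hindgut replicate 4, and to 10 without SlowBKK cold hindgut replicate 2 or SlowBKK control hindgut replicate 1 or 2.

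Among the called genes the median absolute log2 difference of KATH from SlowBKK was 0.39 in hindguts, 0.58 in tubules and 0.28 in bodies. The median of the 100 fitted log2 differences of KATH from SlowBKK was -0.15 (hindgut), -0.11 (tubule) and -0.19 (body), beside 0.01, 0.01 and -0.03 for the 5818 genes. Among cold libraries alone the median difference in log2 CPM was -0.35, -0.19 and -0.32 in the same order. Among control libraries alone it was -0.01, -0.09 and -0.10. For the 5818 genes these medians were -0.03, -0.04 and -0.07 among cold and 0.01, 0.04 and -0.02 among control libraries. In each tissue the median of the 100 genes lay further below 0 among the cold libraries. The median of the 5818 genes was also lower among the cold libraries in each tissue. In tubules it went from 0.04 to -0.04, beside -0.09 to -0.19 for the 100. The cold ratios used by the choice of genes enter this contrast of cold and control, which was not tested.

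The line comparison was also repeated at control temperature alone, a choice made after seeing the data. Between KATH and SlowBKK 7 genes were then called in hindguts (9.94% of all tested genes), 16 in tubules (13.6%) and 27 in bodies (37.7%). Between KATH and FastBKK the counts were 11 (9.7%), 13 (11.9%) and 24 (33.5%). Between FastBKK and SlowBKK they were 4 (6.0%), 5 (7.0%) and 12 (14.2%). Without the cold libraries, and with both directions pooled, the shares of the members were near or below those of all tested genes. In bodies the calls of the comparisons with KATH ran mostly in 1 direction, while FastBKK was lower than SlowBKK for 7 genes and higher for 5. KATH was lower than SlowBKK there for 24 genes (21.9%) and higher for 3 (15.8%). It was lower than FastBKK for 24 (19.0%) and higher for 0 (14.5%) by edgeR, with 3 higher at an unadjusted p under 0.05. The shares called lower in KATH bodies were near those of all tested genes, and the shares called higher were below them. In tubules KATH was lower than FastBKK for 11 and higher for 2. The share of all tested genes there, 11.9%, pools both directions, so this split has no background beside it and is not read further.

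For 14 genes KATH was lower than SlowBKK in each of the 3 tissues (2.9% of the genes tested in all 3, 2.96% of the 5818). They were GF12130, GF12140, GF12635, GF13139, GF14667, GF16859, GF17097, GF17098, GF17423, GF19418, GF20206, GF21760, GF22183 and GF23244. Of these GF12635 and GF13139 had a KATH group under the minimum of 5 CPM. The count was 13 with RLE scaling, 15 with DESeq2 and 12 to 16 with any 1 library left out. At control temperature alone it was 3 (GF12635, GF16859 and GF23244). No share of all genes stands beside that count, so it is not read further. KATH was higher than SlowBKK in all 3 tissues for 0 genes by edgeR and by DESeq2, and for 1 at an unadjusted p under 0.05 in edgeR.

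KATH was lower than FastBKK in each of the 3 tissues for GF16859, GF17423, GF19418 and GF23244 (2.56% of the genes tested in all 3), a count of 3 to 5 with any 1 library left out. FastBKK was lower than SlowBKK in each for GF12130 and GF16859 (1.26%). At control temperature alone both counts were 0 by edgeR, and 3 and 2 at an unadjusted p under 0.05. These too have no share of all genes beside them. For FastBKK below SlowBKK the count became 1 without FastBKK control tubule replicate 4, SlowBKK control tubule replicate 1 or SlowBKK control tubule replicate 2. In all, 79 of the 100 genes were called in at least 1 of the 9 line comparisons, and 21 in none of them. Of the genes tested in all 3 tissues 76.0% were called in at least 1, and of the 5818 genes 73.7%, so the members lay near the background.

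GF16859 (FBgn0093879, scaffold 13340, 2134 bases) was called in all 9. Cold tubules had 47.9, 51.2 and 50.9 CPM in KATH and 94.4, 66.3 and 72.2 CPM in FastBKK, against 133, 98.6 and 110.2 CPM in SlowBKK. Control tubules had 23.2, 20.4 and 17.8 CPM in KATH and 30.8, 30.8 and 29.3 CPM in FastBKK, against 34.1, 34.0 and 31.3 CPM in SlowBKK. The lines kept 1 order at both temperatures, with KATH lowest and SlowBKK highest, and did not overlap. In tubules the log2 difference of KATH from SlowBKK was -0.93 ± 0.09 (SE, edgeR adjusted p = 4.75e-06), and that from FastBKK was -0.61 ± 0.09 (SE, edgeR adjusted p = 0.00022). The smallest of the 9 differences was that of KATH from FastBKK in bodies, -0.19 ± 0.06 (SE, edgeR adjusted p = 0.0281), a call kept in 8 of 18 fits with 1 library left out.

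GF12635 (FBgn0089671, scaffold 13266, 1699 bases) had the largest single line difference, that of KATH from SlowBKK in hindguts. Cold hindguts had 6.40, 7.34 and 6.55 CPM in KATH against 28.6, 28.4 and 17.8 CPM in SlowBKK. Control hindguts had 1.07, 1.46 and 1.26 CPM in KATH against 7.13, 7.21 and 6.11 CPM in SlowBKK. Cold KATH hindguts only came to about the level of control SlowBKK hindguts. The fitted log2 difference of KATH from SlowBKK was -2.13 in hindguts and -1.93 in bodies. Control KATH libraries averaged 1.26 CPM in hindguts and 2.68 CPM in bodies, under the minimum of 5 CPM that the gene passed through the other lines, so these differences are given without a test.

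In tubules the lines of GF12635 differed widely at control temperature and less in the cold. Control tubules had 16.0, 32.6 and 18.4 CPM in KATH and 19.6, 19.2 and 19.8 CPM in FastBKK, against 127, 113 and 88.4 CPM in SlowBKK. Cold tubules had 157, 162 and 182 CPM in KATH and 149.6, 219.9 and 186 CPM in FastBKK, against 246, 183 and 428 CPM in SlowBKK. The log2 difference of FastBKK from SlowBKK was -1.53 ± 0.20 (SE, edgeR adjusted p = 0.000174) over both temperatures and -2.51 ± 0.30 (SE, edgeR adjusted p = 0.000331) at control temperature alone.

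GF23615 (FBgn0100609, scaffold 13337, 1368 bases) ran the other way in tubules. Control tubules had 105, 129 and 136 CPM in KATH and 66.5, 59.7 and 63.6 CPM in FastBKK, against 32.5, 20.8 and 24.1 CPM in SlowBKK. Cold tubules had 212, 214 and 199 CPM in KATH and 212, 193 and 145 CPM in FastBKK, against 186, 163 and 165 CPM in SlowBKK. The tolerant lines were higher without cold, and the lines lay closer together after it. The log2 difference of KATH from SlowBKK was 1.28 ± 0.11 (SE, edgeR adjusted p = 1.88e-06) over both temperatures and 2.24 ± 0.16 (SE, edgeR adjusted p = 1.06e-06) at control temperature alone.

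GF23615 did not keep that order elsewhere. In hindguts the difference of KATH from SlowBKK was -0.43 ± 0.13 (SE, edgeR adjusted p = 0.0267), a call kept in 10 of 18 fits with 1 library left out. In bodies FastBKK was higher than SlowBKK by 0.81 ± 0.10 (SE, edgeR adjusted p = 3.21e-05). The difference between tissues was itself not tested.

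**Figure D4:**
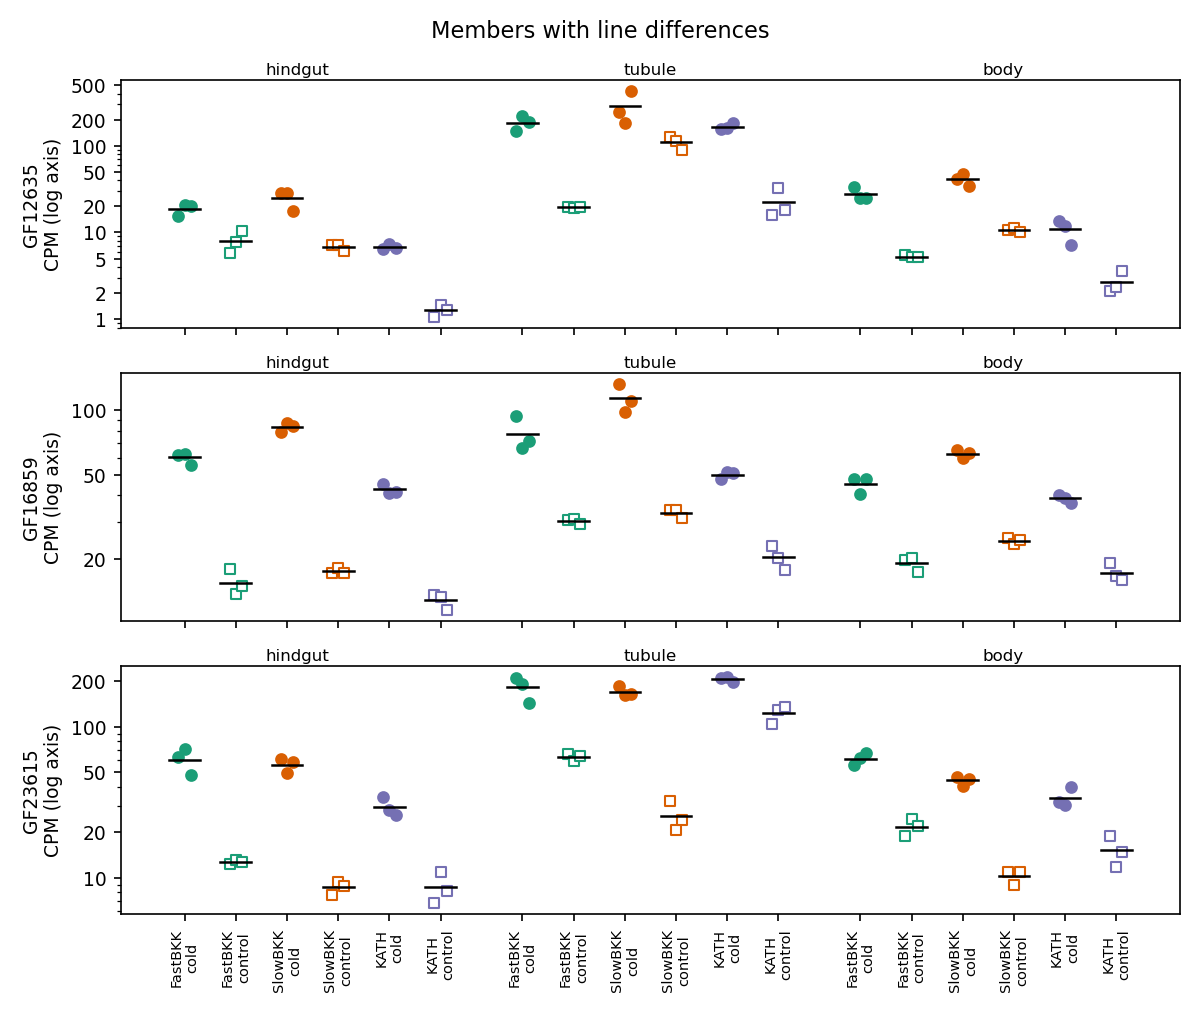
CPM (log axis) of GF12635, GF16859 and GF23615 in every library, by line, treatment and tissue; filled circles are cold libraries, open squares control libraries, bars group means. For GF12635 the SlowBKK control tubules (88.4 to 127 CPM) lie above the other control tubules (16.0 to 32.6 CPM), and for GF23615 the KATH control tubules (105 to 136 CPM) lie above those of SlowBKK (20.8 to 32.5 CPM).

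GF25224 (FBgn0102216, scaffold 13337, 2508 bases) was on opposite sides in tubules and bodies. Cold tubules had 132, 104 and 111 CPM in KATH against 44.3, 50.6 and 50.5 CPM in SlowBKK. Control bodies had 4.87, 4.01 and 4.40 CPM in KATH against 11.2, 11.4 and 10.9 CPM in SlowBKK. KATH was thus the higher line in tubules, by 1.18 ± 0.16 (SE, edgeR adjusted p = 0.000121), and the lower line in bodies, with a difference of -0.87. The body difference is given without a test, because the control KATH bodies averaged 4.43 CPM and the gene passed the minimum through the other lines.

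GF23244 (FBgn0100238, scaffold 12911, 2161 bases) had 38.7, 37.2 and 39.8 CPM in cold KATH bodies against 57.3, 61.7 and 65.4 CPM in cold FastBKK bodies. Control bodies had 17.0, 16.5 and 18.3 CPM in KATH against 23.4, 26.5 and 24.9 CPM in FastBKK. The lines did not overlap at either temperature, and the difference was -0.60 ± 0.05 (SE, edgeR adjusted p = 2.24e-07). GF17804 (FBgn0094822, scaffold 13340, 644 bases) was lower in FastBKK than in SlowBKK bodies, with 19.99, 16.25 and 17.44 CPM in cold FastBKK against 32.4, 32.7 and 28.2 CPM in cold SlowBKK. Its difference over both temperatures was -0.60 ± 0.09 (SE, edgeR adjusted p = 0.000128).

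GF19418, uneven in its response, was also lower in KATH. The difference from SlowBKK was -1.12 ± 0.19 (SE, edgeR adjusted p = 0.00092) in hindguts, and in tubules it was -1.89 ± 0.21 (SE, edgeR adjusted p = 1.78e-05). At control temperature alone the tubule difference was -0.72 ± 0.30 (SE, edgeR adjusted p = 0.126). It did not pass the threshold in the control libraries alone.

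Beside those of GF23615 and GF25224 in tubules, calls of a higher level in KATH included the 3 that follow. That of GF23615 was also called at control temperature alone. GF25085 (FBgn0102077, scaffold 13337, 1972 bases) was higher in KATH than in SlowBKK hindguts by 0.29 ± 0.07 (SE, edgeR adjusted p = 0.00907), and by 0.17 ± 0.10 (SE, edgeR adjusted p = 0.327) at control temperature alone. GF17054 was higher in KATH than in FastBKK bodies by 0.40 ± 0.10 (SE, edgeR adjusted p = 0.00627), and by 0.36 ± 0.15 (SE, edgeR adjusted p = 0.0713) at control temperature alone. GF19053 was higher in KATH than in SlowBKK bodies by 0.23 ± 0.06 (SE, edgeR adjusted p = 0.00531), and by 0.07 ± 0.08 (SE, edgeR adjusted p = 0.544) at control temperature alone. None of these 3 calls passed the threshold in the control libraries. Larger differences of these genes were called in other tissues. GF17054 was higher in KATH than in FastBKK hindguts by 0.85 ± 0.17 (SE, edgeR adjusted p = 0.00282). GF19053 was higher in KATH than in SlowBKK tubules by 0.89 ± 0.13 (SE, edgeR adjusted p = 0.000166). Between the same lines GF17054 was not called in tubules (-0.38), nor GF19053 in hindguts (0.27).

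Of the 3 genes that responded most in hindguts, GF27320 and GF28074 were low in FastBKK there. The fitted log2 difference of KATH from FastBKK was 1.90 for GF27320 and 1.87 for GF28074. That of FastBKK from SlowBKK was -1.68 for GF27320 and -1.56 for GF28074, and at control temperature alone -2.02 and -1.59 in the same order. These are given without a test, because the control FastBKK hindguts averaged 2.18 CPM for GF27320 and 4.68 CPM for GF28074 and both genes passed the minimum of 5 CPM through the other lines. GF26985 was lower in FastBKK than in SlowBKK hindguts, with a difference of -0.83 ± 0.26 (SE, edgeR adjusted p = 0.0492), a call kept in 4 of 18 fits with 1 library left out.

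Between the organs most members differed in level, as did most genes. Over lines and temperatures 92 of the 100 were called between hindgut and tubule (83.5% of all tested genes). The hindgut was higher for 13 (44.0%) and lower for 79 (39.5%). Of the 5818 genes 27.3% were called higher and 60.2% lower in the hindgut. The median log2 difference of the 100 genes was -0.44, beside -0.26 for the 5818. With RLE scaling 82 were called, 16 higher and 66 lower.

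GF14819 (FBgn0091846, scaffold 12916, 2922 bases) was the member highest in the hindgut relative to the tubule. It stood at 135 TPM in cold and 72.0 TPM in control hindguts, and at 13.0 TPM in cold and 3.62 TPM in control tubules. The log2 difference of hindgut from tubule was 3.87 ± 0.10 (SE, edgeR adjusted p = 9.27e-24). The difference was 3.16 ± 0.13 (SE, edgeR adjusted p = 8.36e-19) for GF20759 (FBgn0097765, scaffold 13088, 3043 bases) and 2.78 ± 0.11 (SE, edgeR adjusted p = 6.03e-19) for GF10902 (FBgn0087942, scaffold 13337, 1380 bases). GF10902 stood at 423 TPM in cold and 112 TPM in control hindguts, and at 81.7 TPM in cold and 12.1 TPM in control tubules. Control SlowBKK tubules of GF14819, which enter its difference, averaged 4.88 CPM, under the minimum of 5 CPM.

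At the other end stood GF12635, with a difference of -3.74 ± 0.12 (SE, edgeR adjusted p = 3.32e-21), GF19053 (FBgn0096065, scaffold 13047, 1842 bases), with -3.57 ± 0.08 (SE, edgeR adjusted p = 1.03e-24), and GF17423 (FBgn0094441, scaffold 13340, 1325 bases), with -2.92 ± 0.06 (SE, edgeR adjusted p = 6.38e-25). GF19053 stood at 36.3 TPM in cold and 9.08 TPM in control hindguts, and at 356 TPM in cold and 133 TPM in control tubules. GF17423 stood at 26.2 TPM in cold and 9.73 TPM in control hindguts, and at 210.4 TPM in cold and 66.9 TPM in control tubules. For both the mean of cold hindguts lay below the mean of control tubules. Control KATH hindguts of GF12635, which enter its difference, averaged 1.26 CPM, under the minimum of 5 CPM that it passed through the other lines.

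**Figure D5:**
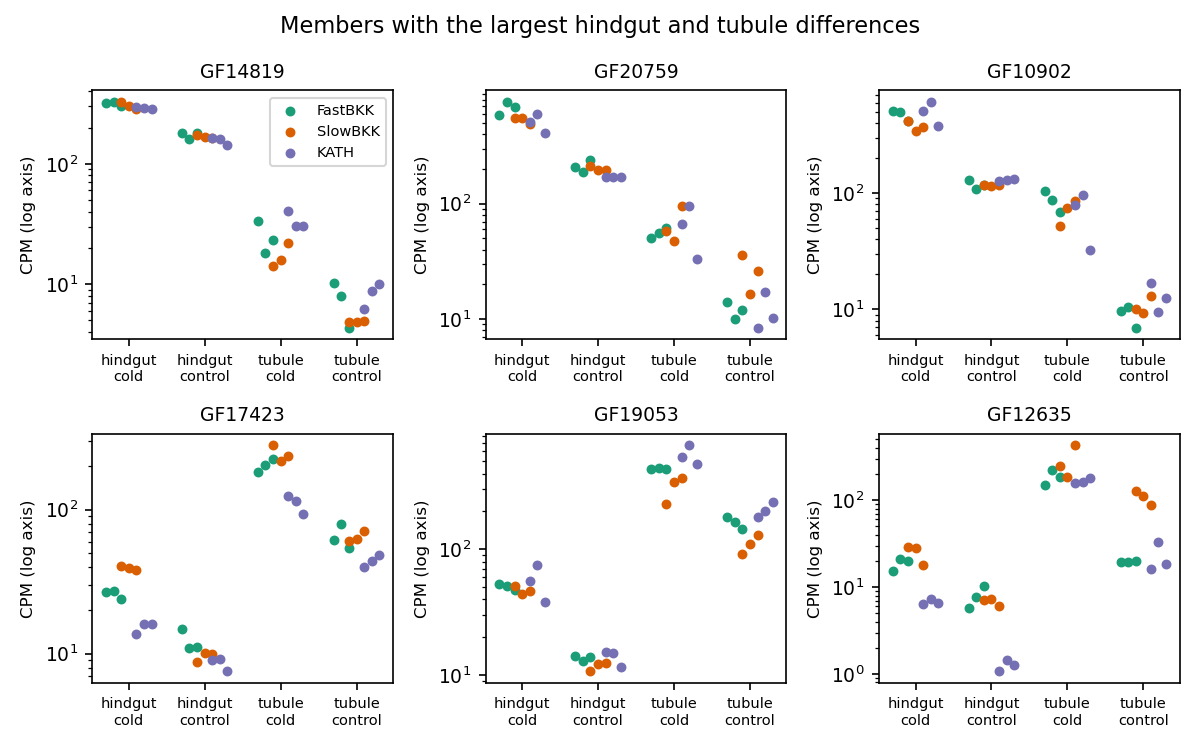
CPM (log axis) of the 3 members highest in the hindgut relative to the tubule (GF14819, GF20759, GF10902) and the 3 lowest (GF17423, GF19053, GF12635), in each library of both organs, by treatment and coloured by line. In every panel the libraries of the organs do not overlap at the same temperature.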

How the data were processed

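The deposited table, by its own header, holds unnormalized read counts of each gene in every sample, with gene identifiers, scaffold and gene length; all values are whole numbers. The submitters' processing notes name FastQC 0.11.9. The aligner, the counter, the genome build and the use of strand are not given in the sources used here.

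CPM values are counts over library totals, and TPM values also divide by the deposited gene length. Each tissue was fitted with edgeR 4.0.16 in R 4.3.3 (18 libraries, a coefficient per line and treatment), and hindgut and tubule also together (36 libraries). Genes were kept by filterByExpr and libraries scaled by TMM. Quasi-likelihood tests were two-sided, with Benjamini-Hochberg adjustment over all tested genes at 0.05. SE is the absolute log2 difference over the square root of F. Alternatives were RLE scaling, DESeq2 1.42.0, no low-count filter, the replicate number as a block, each library left out and, added after seeing the data, control libraries alone. The code was tested on simulated data.

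The members and lists were chosen with earlier results of these data known. Genes named have the 10 highest minimum ratios, the 5 highest mean TPM, the 3 highest mean ratios of a tissue, the 3 widest or narrowest spans, the smallest p of a direction in a line comparison or the 3 highest or lowest organ differences, or lie beside the threshold. Others, listed beside counts, consecutive numbers or close pairs, were named after their values were seen. Lists by product name and promoter motifs were not made, because 0 identifiers matched.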

Additional observations from a re-analysis of the deposited data

How the results depend on the processing

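Of the 100 genes 80 remained with TMM scaling, 99 and 93 with 0.1 and 2 CPM added, 90 with medians, 78 with a level minimum of 1 CPM and 29 with 20 CPM, where 3238 genes pass. With 1 library left out 92 to 100 remained, and 15 remained under all 6 alternatives. Control libraries alone gave 4, 11 and 7 calls for hindguts (FastBKK and SlowBKK, KATH and FastBKK, KATH and SlowBKK), 5, 13 and 16 for tubules, and 24 and 27 for the KATH comparisons of bodies, with fewer libraries tested. Between FastBKK and SlowBKK hindguts 9 to 17 genes were called with 1 library left out. For KATH and SlowBKK the ranges were 23 to 33 in hindguts, 25 to 36 in tubules and 38 to 52 in bodies. For KATH and FastBKK they were 16 to 22, 14 to 22 and 27 to 41. Alternatives were compared for 23 tested differences of named genes, those of smallest p of a direction in a line comparison and the extreme organ differences. Of their 155 alternative values, 151 kept direction and call and 4 kept direction only. Differences picked in this way are likely to keep their call, so these counts do not describe the other tested differences. With 1 library left out, some fits lost the calls of GF26985 (FastBKK from SlowBKK hindguts) and GF23615 (KATH from SlowBKK hindguts). The same held for GF16859 (KATH from FastBKK bodies).

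With the replicate number as a block, FastBKK and SlowBKK differed in 8 genes in hindguts and 13 in tubules. Without it the counts were 16 and 21. KATH and SlowBKK differed in 23 genes in hindguts, 25 in tubules and 48 in bodies with the block, against 33, 32 and 50. For KATH and FastBKK the counts were 19, 16 and 39 with the block, against 20, 20 and 37. The cause was not tested. The labels do not say whether equal numbers mark the same flies, and the numbers were not taken as pairing samples. Correlations of deviations between same-number libraries did not pass 0.1 in every pair. Between hindgut and tubule they ran from -0.089 to 0.41 over 16 pairs (median 0.131, 10 over 0.1), beside a median of -0.055 over 38 pairs of different numbers (7 over 0.1). Within a tissue, where the lines are compared, the same-number medians were 0.019 (hindgut), 0.033 (tubule) and -0.0066 (body). Whether same-number organs came from the same flies was not tested, and the organ tests treat the 36 libraries as independent. With the number as a block between the organs 91 genes were called, 13 higher and 78 lower in the hindgut.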
